A study of Mus musculus with 2 samples.

Results

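Regulatory T (Treg) cells hold immune responses in check. Some of them take on features of the type 1 helper cells they control: the transcription factor T-bet, encoded by Tbx21, switches on the chemokine receptor gene Cxcr3, and CXCR3 then guides the cells to tissues where interferon-gamma has induced its ligands. Interferon-gamma signals through a receptor of a binding chain, encoded by Ifngr1, and a signalling chain, encoded by Ifngr2. The cells described here are mouse Treg cells with transcripts of Cxcr3, of Tbx21 or of both, called Cxcr3/Tbx21 cells below. They were chosen by measured transcripts, as barcodes with at least 2 unique molecular identifiers (UMIs, 1 per captured transcript molecule) of Cxcr3 and Tbx21 together and with at most 1 of the 3 genes Ccl5, Il10 and Klrg1 detected. This rule kept 1216 of 23896 cells, 346 of them in the Mito-high library and 870 in the Mito-low library. They were set against all other cells of the same library with at most 1 of the 3 genes detected, 11700 in Mito-high and 9276 in Mito-low, called comparison cells.

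The study sorted Treg cells that carried the mitochondrial dye MitoTracker into a dye-high (Mito-high) and a dye-low (Mito-low) population, and its title names copper and suppressive capacity as the subject. Each population gave 1 single-cell RNA library made with 10x Genomics 5′ chemistry. The sources used here give no strain, sex, age, tissue or treatment of the mice, nor whether animals were pooled. With 1 library per population there is no replicate, so no difference was tested and population and library cannot be told apart. Folds below describe size, a gene counts as higher or lower past 1.5-fold, and intervals are 95% intervals that cover counting error only.

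The libraries held 89996794 UMIs in 12352 Mito-high barcodes and 60688904 UMIs in 11901 Mito-low barcodes. Of these barcodes 12217 and 11679 had at least 500 genes and at most 20% of UMIs from mitochondrially encoded genes, and were kept. The 2 libraries shared 35 barcodes among kept cells and 0 among Cxcr3/Tbx21 cells. Cxcr3/Tbx21 cells were deeper than comparison cells, with a median of 10779.5 against 6031 UMIs in Mito-high and 5575.5 against 4506 UMIs in Mito-low. Cells with at least 3 UMIs of 6 division genes, called cycling, made up 29.2% of them (24.5 to 34.3) against 4.61% of comparison cells (4.23 to 5.002) in Mito-high. In Mito-low the shares were 2.41% (1.5002 to 3.67) against 0.744% (0.579 to 0.940). Depth and cycling therefore move with membership in both libraries. Some results below, not all, are also given among cells of like depth or without cycling cells. In single-cell sums, more cells with a transcript and more transcripts per cell both raise a level.

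The rule genes describe how the cells were chosen and are no finding. Cxcr3 was detected in 328 Mito-high members (94.8%) and 774 Mito-low members (89.0%), and Tbx21 in 70 (20.2%) and 340 (39.1%). Both were detected in 52 Mito-high and 244 Mito-low cells, Cxcr3 without Tbx21 in 276 and 530, and Tbx21 without Cxcr3 in 18 and 96. Most selected cells are thus cells with Cxcr3 transcripts, and the label's Tbx21 was read in the smaller share of each library. None of Ccl5, Il10 and Klrg1 was detected in 229 Mito-high and 414 Mito-low members, Ccl5 alone in 60 and 285, Il10 alone in 42 and 116, and Klrg1 alone in 15 and 55. Just inside the threshold, 166 Mito-high and 502 Mito-low cells had exactly 2 UMIs of the pair. Just outside it, 464 and 1283 comparison cells had 1 UMI, and the other 11236 and 7993 had 0.

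The Treg label was checked against genes of Treg identity. Foxp3, the transcription factor that defines the lineage, stood at 17.7 counts per 1000000 UMIs (CPM) in Mito-high members against 26.4 CPM in comparison cells, a log2 ratio of −0.55 (−0.92 to −0.24). In Mito-low it stood at 35.3 against 41.0 CPM, a log2 ratio of −0.21 (−0.43 to −0.00). A Foxp3 UMI was read in 18.5% of Mito-high members (14.5 to 23.0) against 15.9% of comparison cells (15.2 to 16.6), and in 17.8% of Mito-low members (15.3 to 20.5) against 16.7% of comparison cells (15.96 to 17.5). Thinned to 2000 UMIs per cell, these shares were 2.31% against 5.44% in Mito-high and 7.001% against 7.64% in Mito-low. In 25 B cell-like cells of the Mito-high library, which should lack the gene, 0 had a Foxp3 UMI at a median of 3165 UMIs, which allows a share of up to 12%. In 24 of them thinned alike the count was also 0, which allows up to 12.5%. The thinned shares lie below that limit, so background cannot be told apart from expression at this depth.

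Of the other Treg genes, Ctla4, an inhibitory receptor, was at 1121 CPM in Mito-high members against 1035 CPM in comparison cells, and at 1500.3 against 1566 CPM in Mito-low. Ikzf2, which encodes Helios, was at 1533 against 1304 CPM in Mito-high and at 1968 against 1822 CPM in Mito-low. Il2ra, a chain of the interleukin-2 receptor, stood at 92.2 CPM in Mito-high members against 216 CPM in comparison cells and 112 against 160.5 CPM in Mito-low. Its log2 ratios were −1.23 and −0.52, so only the Mito-high ratio lies past 1.5-fold. Of 19 measured Treg identity genes, 1 was higher and 5 lower in Mito-high, where 10.3% of all measured genes were higher and 5.74% lower. In Mito-low 0 were higher and 1 lower, against 0.576% and 0.504% of all measured genes.

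Cd4, the co-receptor of helper and most Treg cells, was at 133 CPM in Mito-high members against 116 CPM in comparison cells, and at 176 against 152 CPM in Mito-low. Cd8a, the co-receptor of cytotoxic T cells, was read in 0 of 346 Mito-high and 0 of 870 Mito-low members, which allows shares of up to 0.867% and 0.345%. The 12 natural killer cell markers summed to 6.86 CPM in Mito-high members against 3.72 CPM in comparison cells and to 5.77 against 2.57 CPM in Mito-low, with 7 and 8 of the 12 at 0 in members. The 9 B cell markers summed to 31.0 against 33.3 CPM in Mito-high and 21.4 against 18.2 CPM in Mito-low. The 7 CD8 T cell markers summed to 31.2 against 55.5 CPM and to 42.2 against 36.1 CPM, and the 11 myeloid markers to 106 against 80.2 CPM and to 100.1 against 100.7 CPM. The 8 conventional CD4 T cell markers summed to 534 against 930 CPM in Mito-high and 618.5 against 745 CPM in Mito-low. A UMI of Cd40lg, a marker of these cells, was read in 16.2% of Mito-high members against 6.85% of comparison cells, and in 11.4% of Mito-low members against 8.87%. Thinned to 2000 UMIs per cell, the Cd40lg shares were 3.47% against 2.41% and 3.85% against 4.12%. A further set held 17 genes listed as markers of other cell types, among them T cell receptor gamma constant genes. A UMI of any of them was read in 26.9% of Mito-high members against 15.3% of comparison cells, and in 12.5% of Mito-low members against 10.5%. These shares were not thinned, and members were deeper, so they do not show other cell types among members. Without all cells that had such a UMI, the genes that were past 1.5-fold in both libraries were still past it.

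Cxcr3/Tbx21 cells were the smaller share of the Mito-high library. They made up 2.87% (2.58 to 3.19) of eligible Mito-high cells and 8.57% (8.04 to 9.14) of eligible Mito-low cells. The share was highest in the deepest window of both libraries, and in every depth window the Mito-high value was the lower one. Among cells of 10000 to 15000 UMIs the share was 7.75% (6.403 to 9.28) for Mito-high and 20.97% (17.04 to 25.3) for Mito-low. Thinned to 2000 UMIs per cell, before the rule was applied, the shares were 0.416% in the Mito-high library and 2.53% in the Mito-low one. Given the depth distribution of the Mito-high cells, the Mito-low share came to 12.6%.

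**Figure D1:**
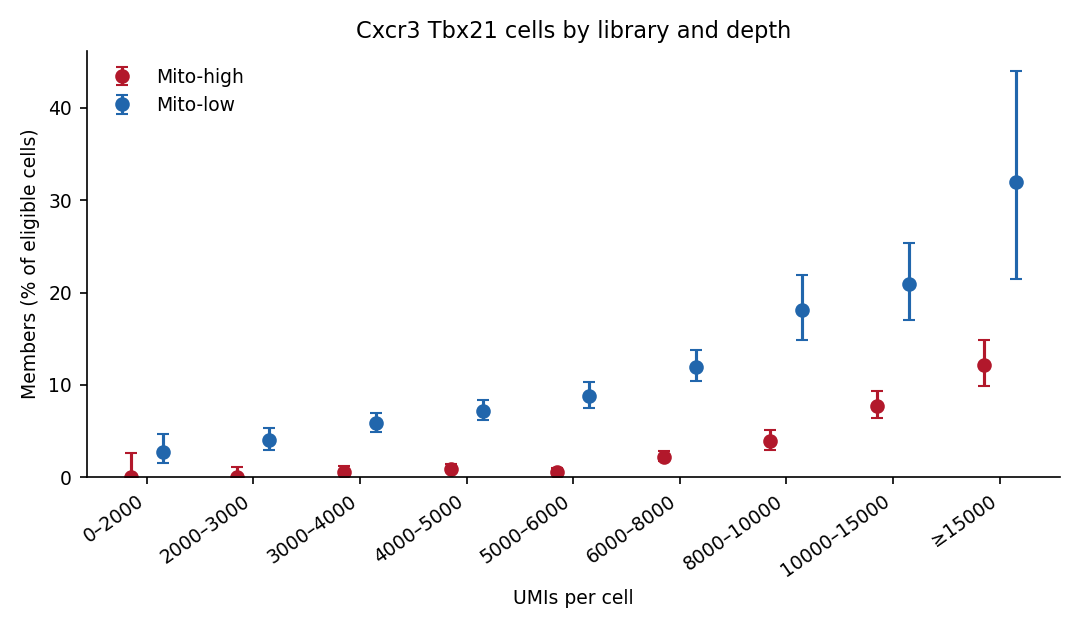
Share of Cxcr3/Tbx21 cells among eligible cells (vertical axis, %) in windows of UMIs per cell (horizontal axis), for Mito-high and Mito-low; bars are exact 95% binomial intervals. In the top window 12.2% of Mito-high cells and 31.9% of the Mito-low ones were members, and the Mito-low point lies above the Mito-high point in every window.

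Of the type 1 T cell genes, Ifng, Nkg7 and Irf8 were higher in members in both libraries. Ifng, which encodes interferon-gamma, was at 50.1 CPM in Mito-high members against 9.32 CPM in comparison cells, 5.40-fold. In Mito-low it was at 120.1 against 36.2 CPM, 3.32-fold. The log2 ratios were 2.43 (2.20 to 2.65) and 1.73 (1.60 to 1.86). A UMI of Ifng was read in 23.1% of Mito-high members against 3.13% of comparison cells, and in 28.3% of Mito-low members against 8.05%, with 0 of the 25 B cell-like cells. After thinning the shares were 6.07% against 1.32% in Mito-high and 15.9% against 4.87% in Mito-low. Interferon-gamma transcripts were therefore read in a minority of the cells in either library.

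Nkg7, a membrane protein of cytotoxic granules, was at 145 CPM in Mito-high members against 45.8 CPM in comparison cells and at 146 against 36.4 CPM in Mito-low. Its log2 ratios were 1.67 (1.54 to 1.79) and 2.01 (1.88 to 2.13), and its level in the 2 groups of members was nearly the same. An Nkg7 UMI was read in 37.3% of Mito-high members against 9.54% of comparison cells, and in 28.2% of Mito-low members against 7.12%. Gzmb, the cytotoxic protease granzyme B, lay below the expression minimum and is named after its values were seen. It was at 30.03 against 3.79 CPM in Mito-high and 24.3 against 10.2 CPM in Mito-low.

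The opposite end was led by Ifngr2, the signalling chain of the interferon-gamma receptor. It was at 19.4 CPM in Mito-high members against 97.0 CPM in comparison cells and at 17.8 against 50.3 CPM in Mito-low. The log2 ratios were −2.30 (−2.65 to −2.01) and −1.48 (−1.80 to −1.20), the lowest shared by both libraries among measured genes. An Ifngr2 UMI was read in 17.9% of Mito-high members against 42.7% of comparison cells, and in 10.1% of Mito-low members against 18.4%, although members were deeper. Of the B cell-like cells 4 of 25 had one. Ifngr1, the binding chain, which is named after its values were seen, did not share this direction: it was at 208 against 182 CPM in Mito-high and 456 against 369 CPM in Mito-low.

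The sequences before the transcription starts of these genes are shown because T-bet is a T-box factor and Nkg7 and Ifng led the genes higher in members, while Ifngr2 led those lower. Each runs over the 250 bases before the annotated start, 5′ to 3′ on the gene's strand, from RefSeq on build GRCm38.p6, with the T-box core AGGTGTGA in capitals wherever it was found on either strand.
Nkg7, chr7:43436888-43437137, plus strand: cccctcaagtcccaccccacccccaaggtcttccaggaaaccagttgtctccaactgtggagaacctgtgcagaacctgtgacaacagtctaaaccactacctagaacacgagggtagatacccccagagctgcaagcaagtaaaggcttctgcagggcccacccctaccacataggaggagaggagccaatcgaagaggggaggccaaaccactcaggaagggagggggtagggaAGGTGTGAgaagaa
Ifng, chr10:118440796-118441045, plus strand: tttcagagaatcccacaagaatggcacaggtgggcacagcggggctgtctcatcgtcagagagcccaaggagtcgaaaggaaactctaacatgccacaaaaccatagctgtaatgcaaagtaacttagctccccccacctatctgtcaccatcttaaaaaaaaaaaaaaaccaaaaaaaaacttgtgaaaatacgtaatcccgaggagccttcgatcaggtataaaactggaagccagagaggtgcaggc
Ifngr2, chr16:91546809-91547058, plus strand: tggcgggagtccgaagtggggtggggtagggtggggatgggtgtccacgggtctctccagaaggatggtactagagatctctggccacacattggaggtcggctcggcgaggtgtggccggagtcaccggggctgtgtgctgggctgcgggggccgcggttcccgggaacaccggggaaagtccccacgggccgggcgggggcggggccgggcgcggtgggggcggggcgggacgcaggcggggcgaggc
The core was found in the Nkg7 window, 14 to 7 bases before the start, and not in the windows of Ifng and Ifngr2. Of 32851 such windows in the reference table, 368 (1.12%) hold it on either strand. Of the 38 genes past 1.5-fold in both libraries, 31 have an entry and 2 hold it in any entry, Nkg7 and Pglyrp1. The first count is by window and the second by gene, so they are unlike measures. A match is a run of letters and not a bound site, and a window without one says nothing of the factor.

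Over all genes, more were past 1.5-fold in Mito-high than in Mito-low. Of 5363 measured genes, those with a mean of at least 20 CPM over the 2 groups, 551 (10.3%) were higher and 308 (5.74%) lower in Mito-high members. Under TMM scaling the counts were 364 and 479, among depth windows weighted alike 213 and 165, and without cycling cells 374 and 200. In Mito-low 32 (0.576%) of 5559 measured genes were higher and 28 (0.504%) lower. Of 5093 genes measured in both, 19 (0.373%) were higher in both and 19 (0.373%) lower in both. The 19 higher are 4.29% of the Mito-high and 79.2% of the Mito-low calls among these genes, and the 19 lower are 6.62% and 82.6%. Over all measured genes the median log2 ratio was 0.10 in Mito-high and 0.01 in Mito-low.

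**Figure D2:**
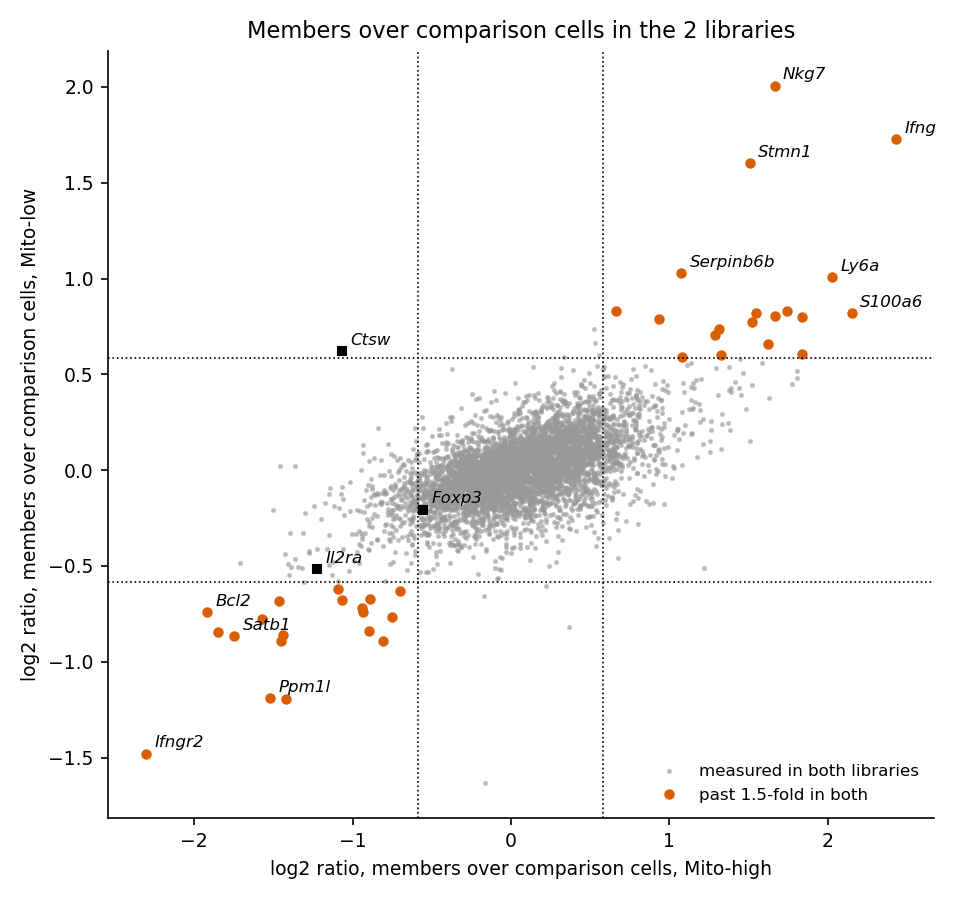
Log2 ratio of Cxcr3/Tbx21 cells over comparison cells in Mito-high (horizontal) and Mito-low (vertical), 1 point per gene measured in both libraries, without the 5 rule genes; dotted lines mark 1.5-fold. The 19 genes at the upper right are higher in both and the 19 at the lower left lower in both, and Ctsw, at −1.07 and 0.62, lies on opposite sides.

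Ly6a, AW112010, Epsti1 and Irf8 were among the 19 genes higher in both libraries. Ly6a, which encodes the surface antigen Sca-1, was at 194 CPM in Mito-high members against 47.7 CPM in comparison cells and at 285 against 142 CPM in Mito-low. AW112010, an interferon-induced transcript, was at 1155 against 396 CPM in Mito-high and 1672 against 946 CPM in Mito-low. Epsti1, an interferon-induced gene, was at 304 against 159 CPM and at 308 against 179 CPM. Irf8, an interferon-regulated transcription factor, was at 38.3 against 18.2 CPM and at 28.7 against 19.1 CPM, and lay just under 1.5-fold in Mito-low under TMM scaling, at a log2 ratio of 0.58.

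The whole list of interferon-gamma-induced genes differed little. Of its 22 measured genes in Mito-high, 2 were higher and 1 lower, with a median log2 ratio of 0.26 against 0.10 over all genes. Of 25 in Mito-low, 0 were higher and 0 lower, with a median of 0.14 against 0.01. Over all measured genes 10.3% were higher and 5.74% lower in Mito-high, and 0.576% and 0.504% in Mito-low. The largest shared ratio was that of Psmb9, a subunit of the immunoproteasome, at 318 against 197 CPM in Mito-high and 225 against 163 CPM in Mito-low. The 13 and 14 measured type I interferon-induced genes had medians of 0.31 and 0.31, with 1 higher in Mito-high and 0 in Mito-low.

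The type 1 list had a median of 0.34 in Mito-high and 0.31 in Mito-low. Of 14 measured genes 6 were higher and 1 lower in Mito-high, where 10.3% and 5.74% of all measured genes were. Of 16 in Mito-low 3 were higher and 0 lower, against 0.576% and 0.504% of all measured genes. The 3 shared genes were Ifng, Nkg7 and Irf8. Runx3, a partner of T-bet, was at 43.3 against 25.03 CPM in Mito-high and at 62.0 against 46.4 CPM in Mito-low. Stat4, which relays interleukin-12 signals, had log2 ratios of 0.40 and 0.20. Il12rb2, an interleukin-12 receptor chain and a T-bet target, was near the limit of detection, at 4.49 against 5.37 CPM in Mito-high and 4.87 against 3.86 CPM in Mito-low. Il18r1, a receptor chain for interleukin-18 named after its values were seen, was at 125 against 53.9 CPM in Mito-high and 202 against 168 CPM in Mito-low.

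Other genes higher in both libraries include S100a6, Lgals1 and Anxa2. S100a6, a calcium-binding protein, was at 1374 CPM in Mito-high members against 309 CPM in comparison cells and at 888 against 503 CPM in Mito-low. Lgals1, galectin-1, was at 1638 against 457 CPM and at 600.1 against 345 CPM. Anxa2, an annexin, was at 215 against 67.5 CPM and at 56.8 against 32.6 CPM. These 3 genes were under 1.5-fold in Mito-low when cells without a Foxp3 UMI were left out, with log2 ratios of 0.46 for S100a6, 0.58 for Lgals1 and 0.30 for Anxa2.

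Serpinb6b, Gna15, Gpm6b and Mt1 were also higher in both, the last 3 by larger folds in Mito-high than in Mito-low. Serpinb6b, an inhibitor of serine proteases, was at 44.0 against 20.9 CPM in Mito-high and 45.1 against 22.1 CPM in Mito-low, close to 2-fold in both. Gna15, a G protein subunit, was at 54.6 against 16.4 CPM and at 57.5 against 32.5 CPM. Gpm6b, a membrane proteolipid, was at 36.9 against 12.9 CPM and at 57.0 against 33.4 CPM. Mt1, a metallothionein that binds copper and zinc, was at 56.3 against 18.3 CPM in Mito-high and 56.2 against 35.8 CPM in Mito-low. The other genes of this set, Morrbid, Pglyrp1, Gimap7, Glrx and Dnajc15, are named because they passed in both. Their log2 ratios ran from 0.66 to 1.84 in Mito-high and from 0.60 to 0.83 in Mito-low.

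Stmn1, a microtubule regulator of dividing cells, was at 427 CPM in Mito-high members against 149.98 CPM in comparison cells and at 40.2 against 13.3 CPM in Mito-low. Its log2 ratios were 1.51 and 1.60. Without cycling cells they were 0.63 and 0.73, and among depth windows weighted alike 0.38 and 1.13, so its size moves with cycling and depth in both libraries. The 24 measured cell cycle genes had a median of 1.66 in Mito-high, with 23 higher, and the 6 measured in Mito-low a median of 0.30, with 1 higher. Without cycling cells these medians were 0.68 and 0.12, and among depth windows weighted alike 0.55 and 0.32. Of all measured genes 10.3% were higher in Mito-high and 0.576% in Mito-low.

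The list of resting-state and lymph node-homing genes had more lower genes in Mito-high than in Mito-low. So had all measured genes, with 5.74% lower in Mito-high and 0.504% in Mito-low. Of the list's 16 measured genes 12 were lower and 0 higher in Mito-high, with a median of −1.17. Of 14 in Mito-low 3 were lower and 0 higher, with a median of −0.34. The 3 shared were Satb1, Bcl2 and Ccr7. Satb1, a chromatin organiser of T cells, was at 170.0 CPM in Mito-high members against 571 CPM in comparison cells and at 99.0 against 181 CPM in Mito-low. Bcl2, which blocks cell death, was at 104 against 392 CPM and at 113 against 189 CPM. Ccr7, a chemokine receptor for entry into lymph nodes, was at 223 against 467 CPM and at 97.0 against 156 CPM.

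Genes outside that list were also lower in both libraries. Irs2, an adaptor of insulin signalling, was at 19.9 against 53.7 CPM in Mito-high and 19.8 against 45.8 CPM in Mito-low. Igf1r, the receptor for insulin-like growth factor, was at 72.8 against 128 CPM and at 63.5 against 118 CPM. Ppm1l, a protein phosphatase, was at 29.3 against 84.9 CPM and at 20.7 against 47.7 CPM. The levels of Irs2 in the members of the 2 libraries were nearly equal, and that of Ppm1l was 1.41-fold higher in Mito-high than in Mito-low members.

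Further genes lower in both were Klf7, a Kruppel-like transcription factor, with log2 ratios of −1.45 and −0.89, and Hdac9, a histone deacetylase, with −1.85 and −0.85. St8sia6 and St8sia1, which attach sialic acid, had −1.57 and −0.78 and −0.94 and −0.74. Nsg2, listed as a marker of conventional CD4 T cells, had −0.90 and −0.84. Ttc28 had −1.44 and −0.86, and Bicdl1, an adaptor of the dynein motor, −0.75 and −0.77. The genes Ramp1, Dusp10, Cyth3, Tasp1 and Znrf3 complete the set. Their ratios ran from −1.46 to −0.70 in Mito-high and from −0.72 to −0.62 in Mito-low.

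**Figure D3:**
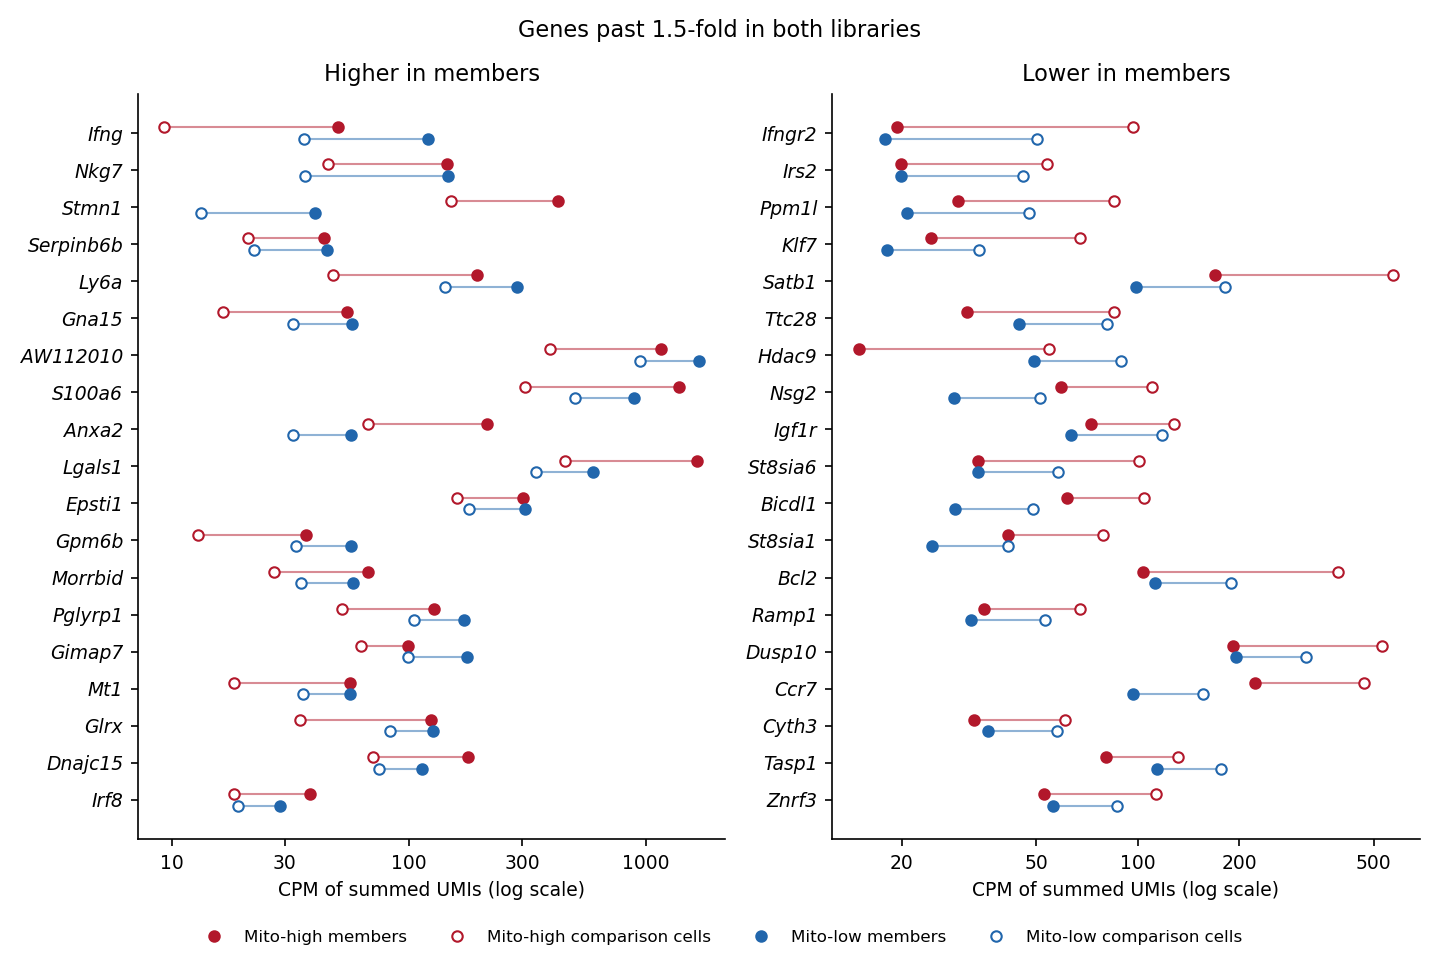
Level in CPM (horizontal, log scale) of the 38 genes past 1.5-fold in both libraries, in Cxcr3/Tbx21 cells (filled) and comparison cells (open), Mito-high above Mito-low for each gene; left panel higher, right panel lower in members. For Ifngr2 the filled points lie at 19.4 and 17.8 CPM while the open points lie at 97.0 and 50.3 CPM.

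The 38 genes kept their direction in both libraries under each of the 16 alternatives. They were picked by size in these data, and changing the expression minimum leaves a ratio as it is. Part of this outcome was thus fixed in advance. In cells weighted to like depth 16 of the 19 higher and 17 of the 19 lower genes were still past 1.5-fold in both libraries, and without cycling cells 18 and 17. Among cells with a Foxp3 UMI 12 and 7 were. Where both Cxcr3 and Tbx21 were detected 12 and 12 were. These last sets are the smallest, with 64 and 155 members having a Foxp3 UMI and 52 and 244 members having both rule genes.

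Levels were also read by the number of Cxcr3 and Tbx21 UMIs on both sides of the threshold. The rule used these same counts, so the order describes the cut-off and is no independent support. In Mito-low cells with 0, 1, 2, 3 and at least 4 UMIs of the pair, Nkg7 was at 27.5, 83.8, 128, 155 and 183 CPM. Ifng was at 29.1, 74.3, 117, 151 and 93.8 CPM in the same cells, highest at 3 UMIs. Ifngr2 was at 53.6, 32.6, 19.2, 19.9 and 11.9 CPM. Comparison cells with 1 UMI thus lay between those with 0 and the members for each of the 3 genes. Since depth went up along this order, from a median of 4440 to 6118.5 UMIs, levels were also read in cells of 4000 to 8000 UMIs. There Nkg7 was at 26.7, 89.4, 129, 186 and 232 CPM and Ifngr2 at 54.7, 30.3, 19.4, 12.4 and 4.14 CPM.

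In Mito-high cells of 4000 to 8000 UMIs, Nkg7 was higher and Ifngr2 lower in members than at 0 UMIs. These values rest on fewer cells, 48, 24 and 23 in the 3 member classes. Nkg7 was at 30.4, 109.8, 178, 175 and 385 CPM. Ifng was at 9.57, 39.1, 132, 90.8 and 78.2 CPM. Ifngr2 was at 115, 40.8, 22.6, 14.0 and 19.6 CPM. Satb1 was at 673, 237, 149, 41.9 and 26.1 CPM. Foxp3 was at 29.6, 23.8, 9.69, 0 and 26.1 CPM, with intervals that overlap among the member classes.

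**Figure D4:**
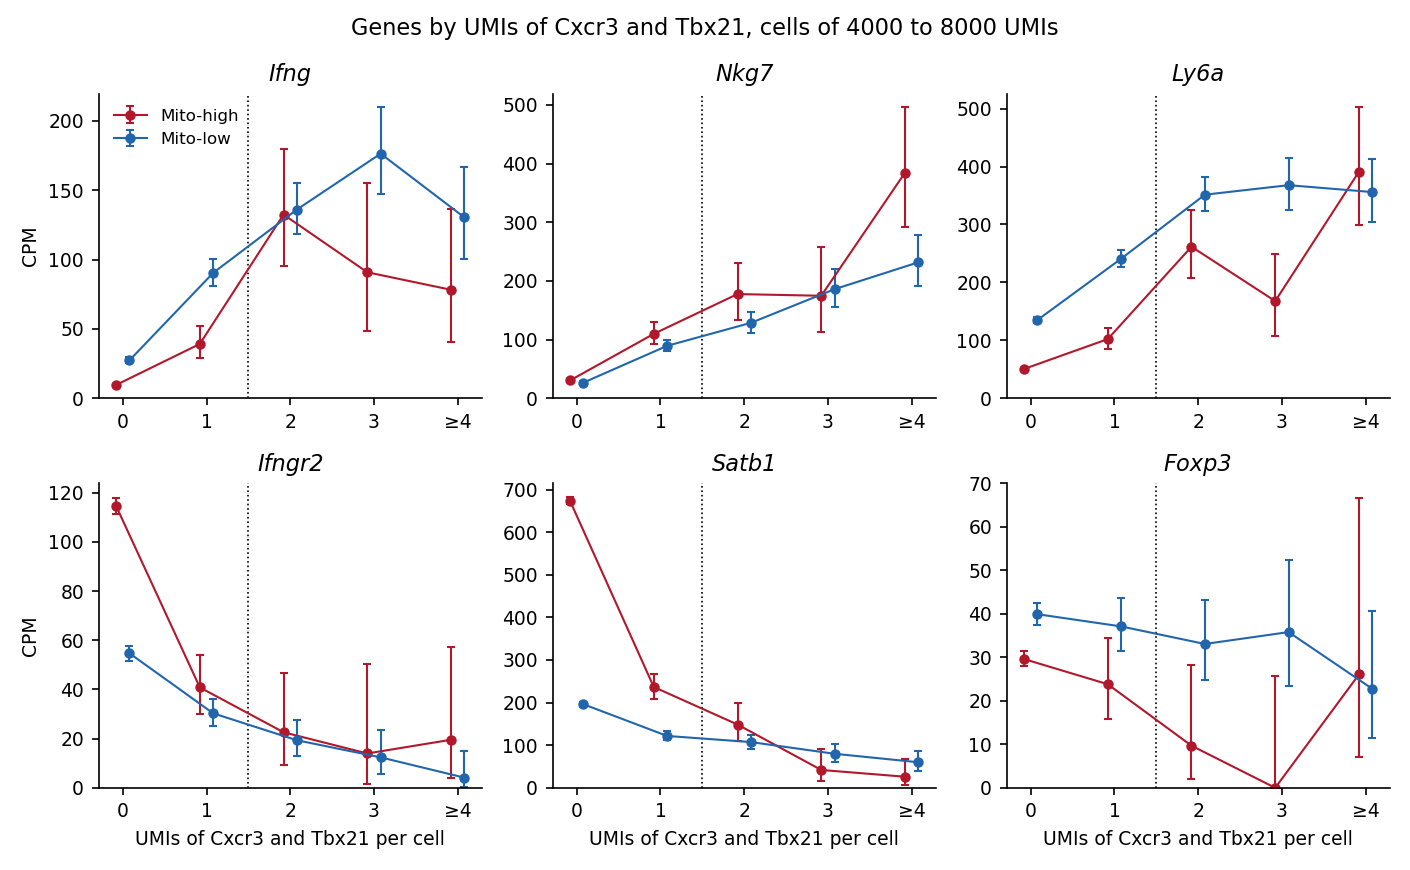
Level in CPM (vertical) by UMIs of Cxcr3 and Tbx21 per cell (horizontal) in cells of 4000 to 8000 UMIs, Mito-high and Mito-low, with exact 95% Poisson intervals; members lie right of the dotted line. In Mito-low, Nkg7 runs from 26.7 CPM at 0 UMIs to 232 CPM at 4 or more, and Ifngr2 from 54.7 to 4.14 CPM.

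The members varied with which of the rule genes they carried. In Mito-low, Ifng was at 138 CPM in the 244 cells with both Cxcr3 and Tbx21, at 101 CPM in the 530 with Cxcr3 only and at 186 CPM in the 96 with Tbx21 only. In Mito-high Ifng was at 83.9 CPM in the 52 cells with both, 45.3 CPM with Cxcr3 only and 25.05 CPM in the 18 with Tbx21 only. The last value rests on few UMIs, so a difference in order between the libraries cannot be read from it. S100a6 was lowest with Tbx21 only in both libraries. In Mito-low it was at 512 CPM with Tbx21 only and 1037 CPM with Cxcr3 only. In Mito-high S100a6 was at 230.4 CPM in the 18 cells with Tbx21 only and at 1424 CPM in the 276 with Cxcr3 only. Tbx21-only cells are few, and they were shallower, at a median of 9494.5 UMIs in Mito-high and 4738.5 UMIs in Mito-low.

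Members with Ccl5 as the only one of the 3 excluding genes had the highest Nkg7 levels of the classes formed by those genes. Ccl5 encodes a chemokine of cytotoxic and type 1 cells. Nkg7 was at 227 CPM in 60 such Mito-high cells and at 126 CPM in the 229 with none of the 3. In Mito-low it was at 299 CPM in 285 such cells and at 77.8 CPM in the 414 with none. Even the members with none of the 3 were thus above the comparison cells, which stood at 45.8 and 36.4 CPM. Members with none of the 3 had Ifng at 55.6 CPM in the Mito-high and 80.1 CPM in the Mito-low library.

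Cells with at least 2 of Ccl5, Il10 and Klrg1 were left out by the rule, 171 in Mito-high and 1533 in Mito-low. Of these, 35 (20.5%) and 279 (18.2%) had at least 2 UMIs of Cxcr3 and Tbx21. In Mito-low, Ifngr2 was at 17.8 CPM in members (14.5 to 21.7), at 10.8 CPM in excluded cells with at least 2 UMIs of the pair and at 19.3 CPM in excluded cells with fewer. Ccr7 was at 97.0 CPM in members against 38.6 and 31.3 CPM in these groups, and Bcl2 at 113 CPM against 58.7 and 63.1 CPM. Epsti1 was at 308 CPM in members, 299 CPM in excluded cells with the pair and 164 CPM in those without. Mt1 was at 56.2 CPM in members against 117 and 135 CPM. The low Ifngr2 level was thus also found in cells with little or no Cxcr3 and Tbx21, while Ccr7 was higher in members than in either excluded group of this library.

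Mitochondrial genes were of interest because the sort used a mitochondrial dye. Mitochondrially encoded genes took 3.42% of UMIs in Mito-high members against 3.44% in comparison cells, and 2.94% against 3.30% in Mito-low. The 13 mitochondrially encoded protein genes had median log2 ratios of −0.10 and −0.22, with 0 of 13 past 1.5-fold in either library. The 42 measured nuclear genes of the respiratory chain and ATP synthase had medians of 0.40 in Mito-high, where 5 were higher, and 0.13 in Mito-low, where 0 were. Over all measured genes the medians were 0.10 and 0.01, and 10.3% and 0.576% were higher. The 5 of 42 are thus near the share over all genes. Cox5a, a subunit of the copper-containing cytochrome c oxidase, was at 488 against 298 CPM in Mito-high and 263 against 221 CPM in Mito-low.

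Of the copper transport and binding genes, 9 were measured in Mito-high, with 3 higher and 0 lower, and 8 in Mito-low, with 1 higher and 0 lower. Mt1 was the shared one. Slc31a1, the copper importer CTR1, was at 11.1 against 11.5 CPM in Mito-high and 9.92 against 12.2 CPM in Mito-low. Atox1, a copper chaperone, had log2 ratios of 0.41 and 0.11, and Cox17, a copper chaperone of that oxidase's assembly, 0.51 and 0.09. The medians of this list were 0.49 and 0.05, against 0.10 and 0.01 over all genes, of which 10.3% were higher in Mito-high and 0.576% in Mito-low.

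For the lists that follow, 10.3% of all measured genes were higher and 5.74% lower in Mito-high, and 0.576% and 0.504% in Mito-low. Genes induced early by the T cell receptor had a median of −0.62 over 16 genes in Mito-high, 9 of them lower. In Mito-low their median was −0.22 over 15 genes, 0 of them lower. Egr1, an immediate early transcription factor, was at 24.4 against 49.9 CPM in Mito-high and 40.7 against 59.0 CPM in Mito-low. Genes of Treg suppression had a median of 0.37 in Mito-high, with 5 of 16 higher, and 0.01 in Mito-low, with 1 of 21. Maf, a transcription factor of effector Treg cells, was at 161 against 73.2 CPM in Mito-high and 333 against 292 CPM in Mito-low. Type 2 and tissue Treg genes had medians of 0.60, with 7 of 13 higher and 0 lower, and −0.08, with 2 of 13 higher and 1 lower. The 6 RNA quality genes had medians of −0.40 and −0.23.

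**Figure D5:**
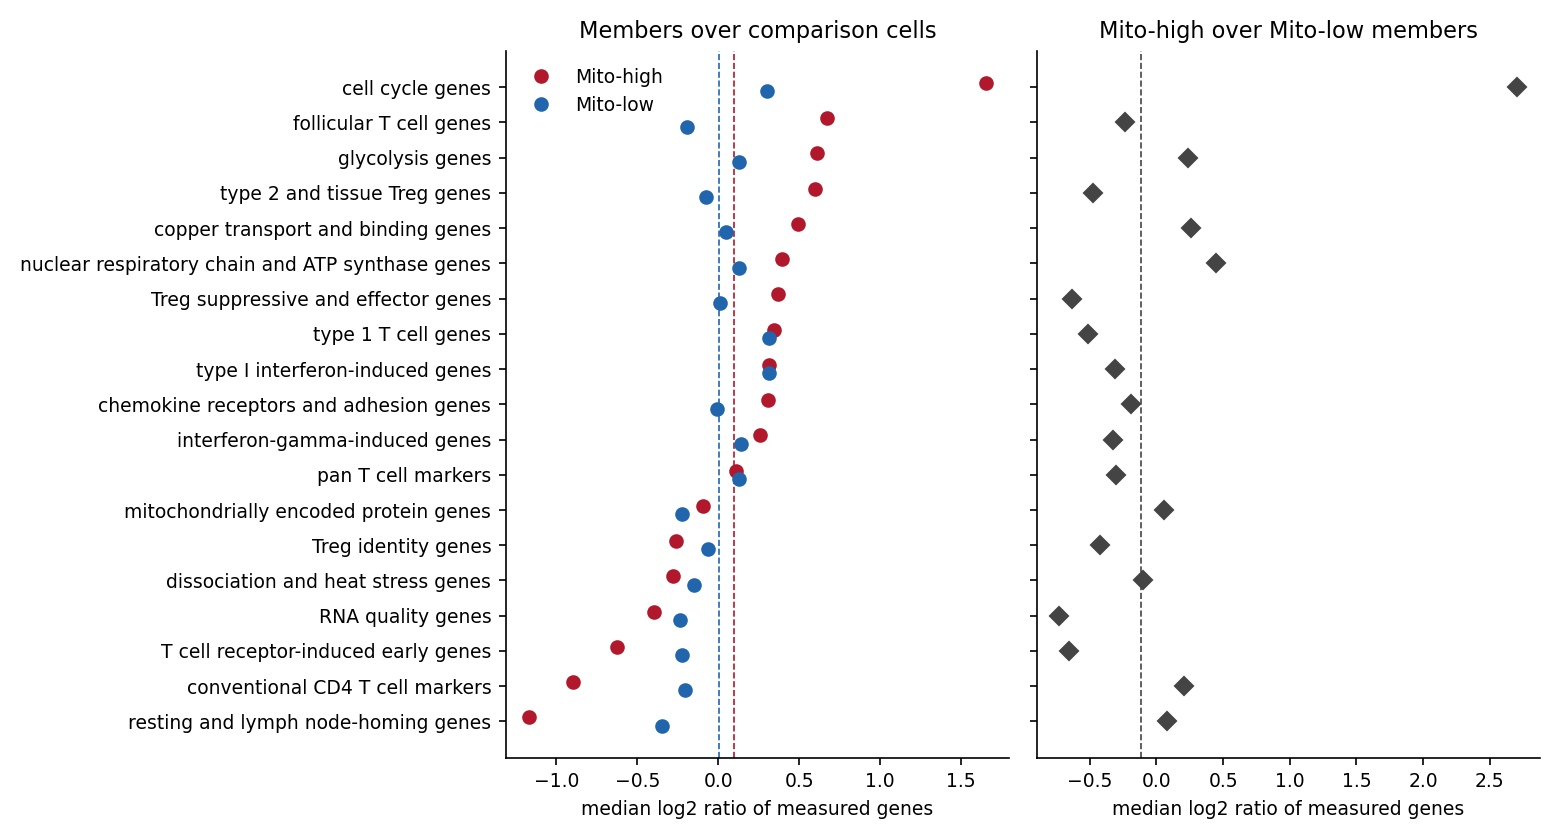
Median log2 ratio over the measured genes of each list (horizontal) for members over comparison cells (left, Mito-high and Mito-low) and for Mito-high over Mito-low members (right); dashed lines are the medians over all measured genes, and lists with at least 5 measured genes in each library are shown. Cell cycle genes reach 1.66 in Mito-high, 0.30 in Mito-low and 2.70 between the members of the 2 libraries.

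Mito-high members were then set against Mito-low members. Of 5508 measured genes, 563 (10.2%) were higher and 749 (13.6%) lower in Mito-high members. Under TMM scaling, which raised each ratio by 0.12, the counts were 791 and 451, and without cycling cells 209 and 471. The median over all genes was −0.11. That of the 6 RNA quality genes was −0.73, with 3 lower and 0 higher. Most of the genes past 1.5-fold had the same sign between the comparison cells of the 2 libraries. Of 479 higher calls measured in both contrasts, 89 (18.6%) were also past 1.5-fold in comparison cells and 446 had the same sign. Of 731 lower calls, 299 (40.9%) were past it there and 706 had the same sign. Over all 5231 genes measured in both contrasts, 2.5% were higher and 9.42% lower between the comparison cells. The share of all these genes with the same sign in both contrasts was not counted, so the same-sign counts have no background beside them.

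Division genes led the upper end. Pclaf, which binds the sliding clamp of DNA replication, was at 267 CPM in Mito-high members against 12.8 CPM in Mito-low members, and Birc5, survivin, at 167 against 10.1 CPM. Rrm2, a subunit of ribonucleotide reductase, was at 90.6 against 6.31 CPM. The log2 ratios of these 3 genes were 4.36, 4.02 and 3.81, and without cycling cells 1.27, 2.33 and −0.55. All 23 measured cell cycle genes were higher, with a median of 2.70, which was 0.80 without cycling cells and 1.84 at like depth. The share of cycling cells in the members, 29.2% in Mito-high and 2.41% in Mito-low, moves with these values.

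At the lower end, Gdpd3, a phosphodiesterase, was at 4.49 CPM in Mito-high members against 37.9 CPM in Mito-low members, a log2 ratio of −3.01 (−3.84 to −2.40). In comparison cells the same ratio was −0.70. Abcb1a, a drug efflux pump that can export dyes, was at 31.2 against 145 CPM, and Il7r, the interleukin-7 receptor, at 96.5 against 308 CPM. Ell2, an elongation factor, was at 47.8 against 195 CPM, Pgm2l1 at 13.0 against 53.0 CPM, and Cdkn1a, which encodes the cell cycle inhibitor p21, at 10.9 against 39.8 CPM. The comparison cells showed log2 ratios of −2.79 for Abcb1a, −1.23 for Il7r, −1.93 for Ell2 and −1.85 for Cdkn1a, so these differences are not particular to the members.

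Of the 38 genes, 27 had a smaller library difference in members than in comparison cells and 11 a larger one. They were picked by ratios that also enter this count, and the same count was not made over all genes. Of the 5231 genes measured in both contrasts, 479 were higher and 731 lower between members, against 131 and 493 between comparison cells. Ifngr2 had a log2 ratio of 0.12 between Mito-high and Mito-low members and 0.95 between the comparison cells. Mt1 had 0.00 and −0.97, Gna15 −0.07 and −0.99, Bcl2 −0.12 and 1.05, and Glrx −0.03 and −1.25. Nkg7 had −0.01 and 0.33. Ifng remained lower in Mito-high members, at −1.26 (−1.49 to −1.03), against −1.96 in comparison cells, and at −0.41 when both groups were weighted to like depth. Among those with the larger difference in members, Lgals1 had 1.45 in members and 0.40 in comparison cells, Anxa2 1.92 and 1.05, and Hdac9 −1.71 and −0.71. Without cycling cells the member ratios of Lgals1 and Anxa2 were 0.98 and 1.39. Between members, type 1 genes had a median of −0.52 over 17 measured genes, with 7 lower and 0 higher. Treg suppressive genes had one of −0.63 over 22, with 12 lower and 0 higher. Over all measured genes the median was −0.11, with 13.6% lower and 10.2% higher.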

How the data were processed

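Single-cell RNA was measured in 1 Mito-high and 1 Mito-low library. The authors deposited a sparse matrix of whole UMI counts for each library, per the file headers. Cell Ranger 7.1.0, Seurat 4.3.0.1 and mm10 are named in the submitters' processing notes. The sources used here name neither the annotation release nor the handling of intronic reads. The labels give 12000 cells as loaded per library, fewer than the 12352 Mito-high barcodes. No barcode was removed as a doublet, and free RNA in empty droplets could not be measured.

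UMIs were summed over the cells of a group and scaled to counts per 1000000 (CPM). Log2 ratios have a pseudo-count of 1 on each sum and exact conditional binomial intervals, sums have exact Poisson intervals and shares Clopper-Pearson intervals, at 95%. A count of 0 is given with a limit of 3 counts. PCR and sampling of cells are not covered. Genes with a mean of at least 20 CPM over the 2 groups count as measured, and the 5 rule genes were left out of counts of genes. B cell-like cells have at least 4 of 9 B cell markers. Calculations used Python 3.11.15, numpy 2.4.6, scipy 1.17.1 and pandas 2.3.3, and edgeR 4.0.16 under R 4.3.3 for TMM factors alone. The ratio and thinning functions were tested on simulated data.

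Members, 26 gene lists and alternatives were chosen with earlier results of these data known. Named genes are the 12 with the highest and 12 with the lowest ratios shared by both libraries or between the members of the 2 libraries, up to 4 of each list, a fixed set of Treg, type 1 and copper genes, and others said to be named after their values. Alternatives changed the scaling, the expression minimum, the pseudo-count, the weighting of cells, the rule's thresholds, the comparison cells and the depth distribution. A further 4 were chosen after seeing the data: cells with a Foxp3 UMI only, and leaving out cycling cells, cells above 15000 UMIs or cells with a marker of another type.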

Additional observations from a re-analysis of the deposited data

Results flagged for a closer look

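Ctsw, which encodes the cysteine protease cathepsin W of cytotoxic lymphocytes, went opposite ways in the 2 libraries. Its log2 ratio, members over comparison cells, was −1.07 in Mito-high (17.5 against 37.1 CPM) and 0.62 in Mito-low (28.8 against 18.8 CPM). The difference between the libraries was not tested, since each is 1 sample. Among cells with a Foxp3 UMI the ratios were −0.73 and −0.16.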

How the results depend on the processing

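With 1 library per population every value rests on a single sample, and cells are not replicates. No paired analysis was possible because each population has 1 library. Members carry more UMIs than comparison cells, and low genes of the 346 Mito-high members rest on few UMIs. The cause of the changes below was not tested, except that stricter minimums and smaller cell sets change what enters by construction. Of the values of named genes under the alternatives, 3158 stayed within the interval of the main value and 1260 left it. A further 10 belonged to ratios past 1.5-fold and changed sign. Sign changes of smaller ratios are not counted apart. Of the medians of gene lists, 561 stayed within 0.1 of the main value and 232 did not. Over the alternatives, Mito-high medians against comparison cells ran from 0.31 to 0.69 for glycolysis genes and 0.21 to 0.45 for nuclear respiratory genes. They ran from 0.22 to 0.58 for copper genes and −0.73 to −0.34 for genes induced early by the T cell receptor. Counts are given as higher and lower.

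The share of Cxcr3/Tbx21 cells was 0.416% in Mito-high and 2.53% in Mito-low after thinning, 1.49% and 3.63% with at least 3 UMIs, and 2.12% and 6.26% with none of Ccl5, Il10 and Klrg1. Of all kept cells it was 7.45% in Mito-low, and 12.6% at Mito-high depths. For Mito-high members against comparison cells the counts were 364 and 479 under TMM scaling and 213 and 165 in depth windows. They were 289 and 176 at a minimum of 50 CPM and 9742 and 1834 at no minimum. With both rule genes 977 were higher, without cycling cells 200 were lower, and without mitochondrial, ribosomal, receptor and immunoglobulin genes in the total 528 were lower.

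For Mito-low the counts were 16 and 10 at 50 CPM, 6561 and 1173 at no minimum, 60 and 63 with at least 3 UMIs, 55 and 44 with none of the 3 genes, 89 and 54 with both rule genes, and 124 and 85 in cells with a Foxp3 UMI. The reduced total gave 44 lower, and cells weighted alike 47 lower. In both libraries the counts were 10 and 8 at 50 CPM, 4599 and 328 at no minimum, and 33 and 31 with at least 3 UMIs. Higher in both were 36 with none of the 3 genes, 33 with both rule genes and 36 with a Foxp3 UMI, and lower in both were 30 with the reduced total and 29 with cells weighted alike.

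Between Mito-high and Mito-low members the counts were 331 and 424 at 50 CPM, 3219 and 4905 at no minimum, 893 and 1147 with both rule genes, and 209 and 471 without cycling cells. TMM scaling gave 451 lower, setting the median ratio to 0 gave 457 lower, and leaving out cells above 15000 UMIs gave 295 higher.

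Among ratios past 1.5-fold, signs changed as follows. Without cycling cells the ratios of Mito-high over Mito-low members were −0.55 for Rrm2, −0.33 for Hist1h1b and −0.25 for Top2a. In cells with a Foxp3 UMI they were −0.070 for St8sia1 and 0.32 for Ctsw, and the Mito-low ratios to comparison cells were −0.16 for Ctsw and −0.40 for Uhrf1. The Mito-low ratio of Gzmb was −0.21 with both rule genes. That of Cd8a, at 0 UMIs in members, was −1.35 with a pseudo-count of 0.1 and −0.22 in depth windows.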

Other observations

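T cell receptor V segments were read in few UMIs, 201 and 365 of beta and 126 and 345 of alpha segments in Mito-high and Mito-low members. Trbv20 made up 10.45% of beta V UMIs in Mito-high members against 6.14% in comparison cells, and 8.49% against 7.38% in Mito-low. Trbv12-2 made up 16.9% against 15.98% in Mito-high and 16.99% against 13.7% in Mito-low. Of alpha V UMIs, Trav14-1 made up 0% against 2.04% in Mito-high and 0.290% against 1.82% in Mito-low. UMIs of 1 cell share a receptor, so these shares rest on fewer cells than UMIs.

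Glycolysis genes had a median log2 ratio of 0.61 in Mito-high members against comparison cells, with 7 of 14 measured genes higher and 1 lower. In Mito-low the median was 0.13, with 0 of 15 past 1.5-fold. Among all measured genes 10.3% were higher and 5.74% lower in Mito-high, and 0.576% and 0.504% in Mito-low. Gapdh, a glycolytic enzyme, was at 1003 against 581 CPM in Mito-high and 682 against 574 CPM in Mito-low. Follicular T cell genes had medians of 0.67 in Mito-high, with 4 of 7 higher and 1 lower, and −0.19 in Mito-low, with 0 of 7 past 1.5-fold.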
